A study of Mus musculus with 4 samples.

Results

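The constitutive proteasome genes and their regulators were examined in fasted mouse liver. They comprised the probe sets that carry exactly 1 gene symbol beginning with Psma to Psmg followed by a number, with the inducible catalytic subunits Psmb8, Psmb9 and Psmb10 left out. This selection held 99 of the 45101 probe sets on the array, which belong to 46 of the 18194 genes with a probe set of their own. Total liver RNA came from 4 individually housed male C57BL/6J mice, 12 weeks old, kept on normal chow and deprived of food for 24 h, with 1 mouse per one-colour Affymetrix array. The 2 mice labelled Cnot3+/- are heterozygous for Cnot3, which encodes a subunit of the CCR4-NOT deadenylase, an mRNA-decay complex. Controls were 2 wild-type mice. The arrays are called Cnot3+/- 1, Cnot3+/- 2, wild-type 1 and wild-type 2 after their labels, which do not describe the Cnot3 allele. The comparison asks how liver transcripts differ between the genotypes after fasting.

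The proteasome is the protease that degrades ubiquitin-tagged proteins. Its barrel-shaped core is built of stacked rings of alpha subunits, which gate the entrance, and beta subunits, of which a few cut the substrate. A regulatory cap sits on the core, with a base of ATPases that unfold the substrate and a lid that removes its ubiquitin. Because subunits are needed in fixed proportions, cells make them in concert, and in mammals the transcription factor encoded by Nfe2l1 raises many of their genes together when proteasome capacity is short. In liver the proteasome clears short-lived regulatory enzymes and damaged proteins, and interferon can replace its cutting subunits with inducible ones.

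Each array gave a log2 value for every probe set, with array medians between 4.62 and 4.66. Of the 99 probe sets, 80 passed the filter on dim values (mean log2 above 4.06). All 46 genes kept at least 1 of them and were tested among 13379 genes, each through its brightest probe set outside the _x_at and _s_at kinds, which can match related transcripts. The precision of every value is limited by the number of arrays, 2 per group. Between the arrays labelled Cnot3+/- 432 genes were at least 2-fold apart, against 74 between the wild-type arrays. Cnot3 itself had log2 values of 7.70 and 7.86 in the Cnot3+/- arrays, against 7.48 and 8.14 in the wild-type arrays. The groups overlapped, the difference was -0.03 (SE 0.25), and the genotypes of the arrays therefore rest on their labels. Hepatocyte markers were bright, with Alb at 14.83 and 14.87 in the Cnot3+/- arrays and 14.80 and 14.86 in the wild-type arrays.

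No proteasome gene passed the test between the genotypes. Of the 46 genes 37 had a higher mean in the Cnot3+/- arrays and 9 a lower one, with a median log2 difference of 0.06 and a range from -0.39 to 0.24. Over all genes tested, 47.9% were higher and the median was -0.01. None of the 46 had an adjusted p below 0.999 in limma, where 0.0149% of all genes were called, and 0 had an unadjusted p under 0.05, where 3.59% of all genes did. The 95% interval of the difference lay within 2-fold either way in 46 of 46 genes, against 92% of all genes. It lay within 1.5-fold either way in 34 of 46, against 58.3% of all genes. At the level of probe sets, 57 of the 80 were higher and 23 lower, with a median of 0.06 and a smallest adjusted p of 1, where 0.00739% of all probe sets were called.

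**Figure D1:**
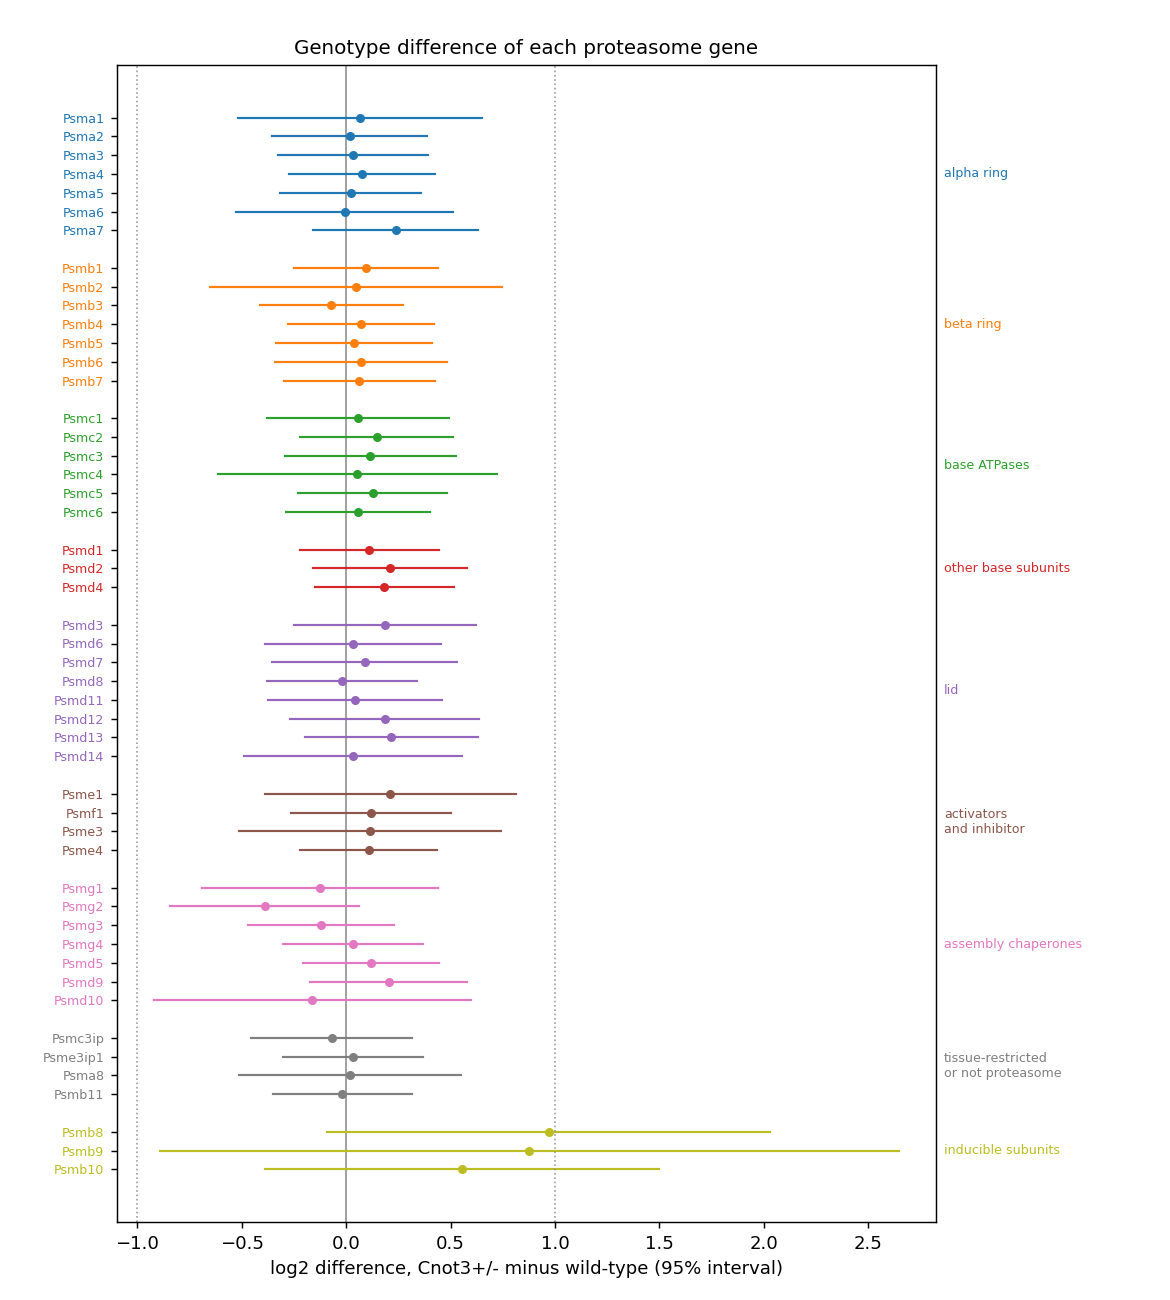
Log2 difference, Cnot3+/- minus wild-type, of the 46 proteasome genes and the 3 inducible subunits (points), with its 95% confidence interval (lines) and genes grouped by role from top to bottom. Dotted lines mark a 2-fold difference either way. The intervals of the 46 constitutive genes run between -0.92 and 0.81 and stay inside the dotted lines, while those of the inducible subunits reach beyond them.

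The median shift between the genotypes was smaller than the median gap between the wild-type mice. In 38 of the 46 genes wild-type 1 stood above wild-type 2, where 49.5% of all genes did, and the median gap was 0.18 against -0.0014 over all genes. In 39 of the 46 genes the difference between genotypes was smaller in size than this gap, as it was in 8187 of the 13379 genes tested. The difference is between means of 2 arrays and the gap between single arrays, which vary more, so the 2 are not on equal terms. Both Cnot3+/- arrays lay above wild-type 2 in 35 genes (28.5% of all genes) and below wild-type 1 in 19 (36.7% of all genes). Between the Cnot3+/- arrays, 25 of the 46 genes were higher in Cnot3+/- 1 (51.2% of all genes), with a median gap of 0.01. The direction of the shift accordingly depended on which wild-type mouse served as control. With wild-type 1 left out the median difference was 0.15 and 40 genes were higher, and with wild-type 2 left out it was -0.03 and 17 genes were higher. The median was 0.07 without Cnot3+/- 1 and 0.06 without Cnot3+/- 2. It was 0.03 after quantile normalization, with 34 of 46 genes higher.

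**Figure D2:**
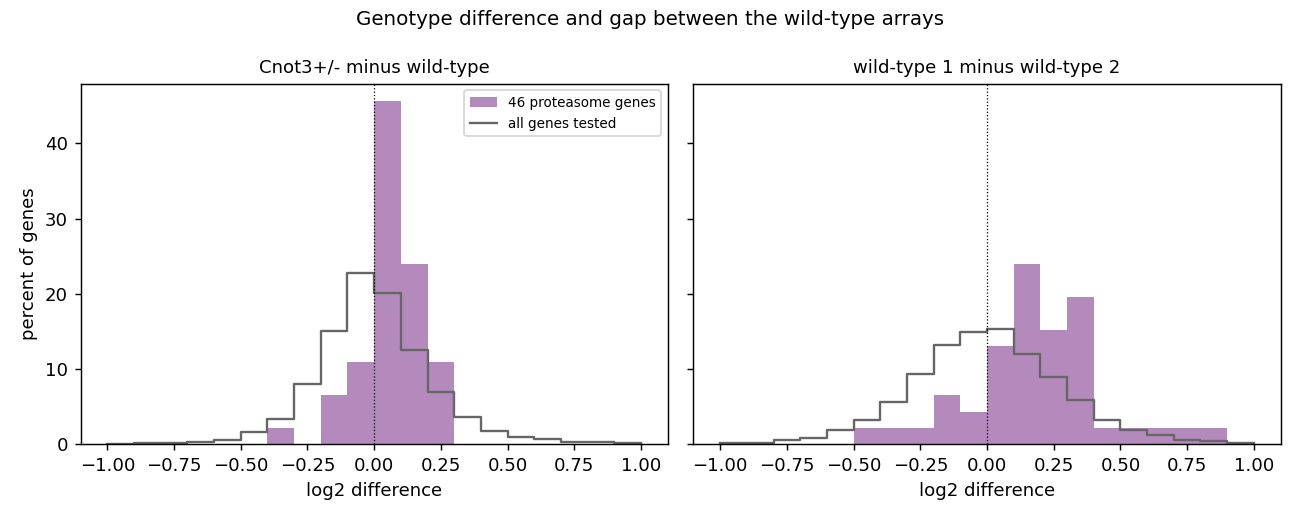
Share of genes by log2 difference in steps of 0.1, between the genotypes (left panel) and between the wild-type arrays (right panel), for the 46 proteasome genes (filled bars) and all 13379 genes tested (line). The axis ends at -1 and 1. The proteasome genes gather just above 0 in the left panel and further to the right in the right panel, with medians of 0.06 and 0.18.

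The alpha ring had a median difference of 0.03 and followed this order in every gene. All 7 were higher in wild-type 1 than in wild-type 2, with a median gap of 0.23, and both Cnot3+/- arrays stood above wild-type 2 in all 7. Psma1 had log2 values of 10.18 and 10.19 in the Cnot3+/- arrays, against 10.43 and 9.81 in the wild-type arrays. The Cnot3+/- pair thus lay between the wild-type mice, and the difference was 0.07 (SE 0.23). Psma5 had 10.64 and 10.68 in the Cnot3+/- arrays, against 10.70 and 10.57 in wild-type, a difference of 0.02 (SE 0.13). The largest difference of the ring was that of Psma7, at 9.79 and 9.84 in the Cnot3+/- arrays and 9.72 and 9.43 in the wild-type arrays. Its groups did not overlap and its difference of 0.24 (SE 0.16, limma adjusted p = 0.999) did not pass. A second Psma7 probe set differed by 0.18. Psma4 was next at 0.08 (SE 0.14), with 11.13 and 11.17 in the Cnot3+/- arrays against 11.16 and 10.99 in wild-type. Psma6 was the one gene of the ring with a difference below 0, at -0.01 (SE 0.20). It had 10.68 and 10.32 in the Cnot3+/- arrays, against 10.70 and 10.32 in wild-type. On this probe set both genotypes held a high and a low mouse. A brighter _x_at probe set of Psma6 had 10.92 and 11.06 in the Cnot3+/- arrays, against 11.01 and 10.71 in wild-type. It differed by 0.13, and Cnot3+/- 2 was the highest there. Psma2 and Psma3 differed by 0.02 (SE 0.15) and 0.03 (SE 0.14).

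The beta ring carries the cutting sites, in Psmb5 (chymotrypsin-like), Psmb6 (caspase-like) and Psmb7 (trypsin-like). The median difference of its 7 genes was 0.06, with 6 above 0 and Psmb3 below, and no gene had separate groups. Psmb5 had 10.49 and 10.69 in the Cnot3+/- arrays, against 10.62 and 10.48 in the wild-type arrays. The groups overlapped and the difference was 0.04 (SE 0.15, 95% interval -0.34 to 0.41). Psmb6 had 10.49 and 10.32 in the Cnot3+/- arrays, against 10.47 and 10.19 in wild-type (0.07, SE 0.16). Psmb7 differed by 0.06 (SE 0.14), so that none of the cutting subunits stood apart. Among the non-cutting subunits, Psmb1 had the largest difference of the ring, 0.10 (SE 0.14), with 10.75 and 10.64 in the Cnot3+/- arrays against 10.66 and 10.54 in wild-type. Psmb4 differed by 0.07 (SE 0.14). Psmb3 was the gene with a lower mean, at 9.87 and 9.99 in the Cnot3+/- arrays and 9.96 and 10.04 in the wild-type arrays (difference -0.07, SE 0.13). Psmb2 had 9.10 and 9.79 in the Cnot3+/- arrays against 9.21 and 9.58 in wild-type, a difference of 0.05 (SE 0.27). As for Psmb3, the second mouse of each genotype was the higher one, an order found in 5 of the 46 genes.

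The promoter windows of Psmb5 and Psmb6 are shown because they hold the core of the antioxidant response element, the site through which the factor encoded by Nfe2l1 is known to act on proteasome genes. Sequences are from RefSeq (assembly GRCm38.p6), run 5′ to 3′ on the gene's strand from 250 bases before to 50 after the start, and have the match to TGACNNNGC, searched on both strands, in capitals.
Psmb5, chr14:54617946-54618245, minus strand: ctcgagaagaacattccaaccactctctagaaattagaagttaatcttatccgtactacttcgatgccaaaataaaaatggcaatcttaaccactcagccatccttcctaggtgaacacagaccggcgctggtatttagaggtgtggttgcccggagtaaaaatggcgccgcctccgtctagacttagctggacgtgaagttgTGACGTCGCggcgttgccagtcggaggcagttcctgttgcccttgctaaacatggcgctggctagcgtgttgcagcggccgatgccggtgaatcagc
Psmb6, chr11:70525107-70525406, plus strand: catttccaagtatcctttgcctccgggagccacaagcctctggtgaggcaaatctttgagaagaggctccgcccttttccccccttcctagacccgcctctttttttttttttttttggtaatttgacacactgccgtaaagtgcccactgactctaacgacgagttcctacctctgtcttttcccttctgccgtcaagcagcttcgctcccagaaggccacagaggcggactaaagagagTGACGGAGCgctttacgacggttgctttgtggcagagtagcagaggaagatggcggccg
A window was found for 38 of the 46 genes, and only the first listed window of each gene was searched. Of these, 6 held TGACNNNGC (15.8%), against 12.5% of the windows of all 27025 genes that have one. Those genes were not limited to the ones tested here. The looser form TGANNNNGC, which contains the stricter one, was in 52.6% of the 38 against 41.4% of all, and the CCAAT box in 36.8% against 37.9%. The ETS core CCGGAAG was in 14 of the 38 windows (36.8%), against 9.12% of all windows. These matches describe the letters of the windows and are not shown to be bound. Genes with the ETS core had a median difference between genotypes of 0.08, and those without it 0.05. Of the 14 genes with the core 11 were higher in Cnot3+/-, and of the 24 without it 19 were. Their median gaps between the wild-type arrays were 0.18 and 0.17.

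The ATPases of the base, Psmc1 to Psmc6, form the ring that unfolds substrates. All 6 had a higher mean in the Cnot3+/- arrays, by 0.05 to 0.15, and all 6 stood higher in wild-type 1 than in wild-type 2, with a median gap of 0.27. Psmc2 had 10.46 and 10.44 in the Cnot3+/- arrays, against 10.41 and 10.19 in the wild-type arrays. Its groups did not overlap (difference 0.15, SE 0.14, adjusted p = 0.999), although wild-type 1 lay close to both Cnot3+/- arrays. Psmc5 had 9.60 and 9.46 against 9.48 and 9.33 in wild-type, a difference of 0.13 (SE 0.14). Psmc3 had 9.80 and 9.76 in the Cnot3+/- arrays, against 9.83 and 9.51 in wild-type (0.12, SE 0.16). Psmc4 had the widest gap between the wild-type mice among the ATPases, 9.92 and 9.20, with the Cnot3+/- arrays between them at 9.70 and 9.52. Psmc1 and Psmc6 each differed by 0.06. Psmc6 was uncertain in direction, since its other probe sets differed by -0.15 and -0.31.

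The other base subunits, Psmd1, Psmd2 and Psmd4, were the role in which every gene had separate groups. Psmd1 and Psmd2 are the large scaffolds of the base, and Psmd4 is a receptor for ubiquitin chains. Psmd2 had 10.18 and 10.39 in the Cnot3+/- arrays, against 10.02 and 10.12 in the wild-type arrays (difference 0.21, SE 0.14, 95% interval -0.16 to 0.58). Psmd4 had 10.38 and 10.45 in the Cnot3+/- arrays, against 10.27 and 10.19 in wild-type (0.18, SE 0.13). Psmd1 had 9.62 and 9.72 against 9.57 and 9.55 in wild-type (0.11, SE 0.13). All 3 stood higher in both Cnot3+/- arrays, each with an adjusted p of 0.999. Separate groups were found in 31.5% of all genes. They were separate with Cnot3+/- higher in 9 of the 46 proteasome genes and in 14.1% of all genes. They were separate in the other direction in 2, against 17.4% of all genes. The median of these 3 genes stayed between 0.11 and 0.22 whichever array was left out. The other Psmd4 probe sets past the filter each differed by 0.02.

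The lid has 8 genes here, with a median difference of 0.07 and Psmd8 alone below 0. Psmd14 encodes the enzyme that removes ubiquitin chains from substrates. It had 9.68 and 9.83 in the Cnot3+/- arrays, against 9.97 and 9.47 in the wild-type arrays, so the Cnot3+/- values lay between the wild-type ones (difference 0.04, SE 0.20). The lid scaffold gene Psmd13 had the largest difference, with 8.52 and 8.50 in the Cnot3+/- arrays against 8.45 and 8.13 in wild-type (0.22, SE 0.16, adjusted p = 0.999). Its groups did not overlap, but wild-type 1 was close to the Cnot3+/- arrays. The 4 Psmd13 probe sets past the filter disagreed in direction, with differences from -0.13 to 0.22. Psmd3, another scaffold, had 8.23 and 8.49 in the Cnot3+/- arrays, against 8.04 and 8.30 in wild-type (0.19, SE 0.17). As for Psmb2, the second mouse of each genotype was the higher one. Psmd12 differed by 0.18 (SE 0.18), Psmd7 by 0.09 (SE 0.17) and Psmd11 by 0.04 (SE 0.16). Psmd6 differed by 0.03 (SE 0.17). Psmd8 was the lower one, at 10.41 and 10.55 in the Cnot3+/- arrays and 10.57 and 10.43 in wild-type (-0.02, SE 0.14). Psmd11 had 7 probe sets past the filter, whose differences ran from -0.17 to 0.23.

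The promoter windows of Psmc2, Psmd2, Psmd4 and Psmd13 are shown as those of cap genes with separate groups that hold the ETS core. They were picked by these same values, and a link between the core and the differences was not tested. Psmd1 also had separate groups, but its window held no ETS core. Psmc1, Psmc6, Psmd6, Psmd11 and Psmd12 held the core and their groups overlapped. The core is in capitals (CCGGAAG, or its reverse complement where the match is on the other strand). The strand, window and source are as for Psmb5.
Psmc2, chr5:21785025-21785324, plus strand: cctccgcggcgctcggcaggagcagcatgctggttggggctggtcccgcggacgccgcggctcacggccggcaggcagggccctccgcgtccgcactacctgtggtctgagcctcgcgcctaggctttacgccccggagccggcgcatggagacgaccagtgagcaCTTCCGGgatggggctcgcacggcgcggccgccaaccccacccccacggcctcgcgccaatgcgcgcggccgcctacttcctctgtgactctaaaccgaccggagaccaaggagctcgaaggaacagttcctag
Psmd2, chr16:20651402-20651701, plus strand: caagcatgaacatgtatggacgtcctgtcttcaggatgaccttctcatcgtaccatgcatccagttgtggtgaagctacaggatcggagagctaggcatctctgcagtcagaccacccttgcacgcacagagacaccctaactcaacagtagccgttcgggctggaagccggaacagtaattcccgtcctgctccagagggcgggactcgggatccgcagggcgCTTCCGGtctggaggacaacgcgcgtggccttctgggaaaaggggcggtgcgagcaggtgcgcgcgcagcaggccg
Psmd4, chr3:95042565-95042864, minus strand: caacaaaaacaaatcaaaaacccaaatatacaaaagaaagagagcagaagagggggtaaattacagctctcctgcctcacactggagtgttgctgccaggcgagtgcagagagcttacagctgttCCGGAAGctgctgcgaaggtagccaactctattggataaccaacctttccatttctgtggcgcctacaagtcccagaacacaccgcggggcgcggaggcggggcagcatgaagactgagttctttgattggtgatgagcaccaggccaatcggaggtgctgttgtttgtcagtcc
Psmd13, chr7:140882144-140882443, plus strand: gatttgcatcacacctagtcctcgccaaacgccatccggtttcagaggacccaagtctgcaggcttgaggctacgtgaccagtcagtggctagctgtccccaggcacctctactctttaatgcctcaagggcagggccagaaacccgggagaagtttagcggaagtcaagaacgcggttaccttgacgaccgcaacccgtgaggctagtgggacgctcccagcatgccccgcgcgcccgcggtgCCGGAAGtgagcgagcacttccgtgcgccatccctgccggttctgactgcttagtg

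**Figure D3:**
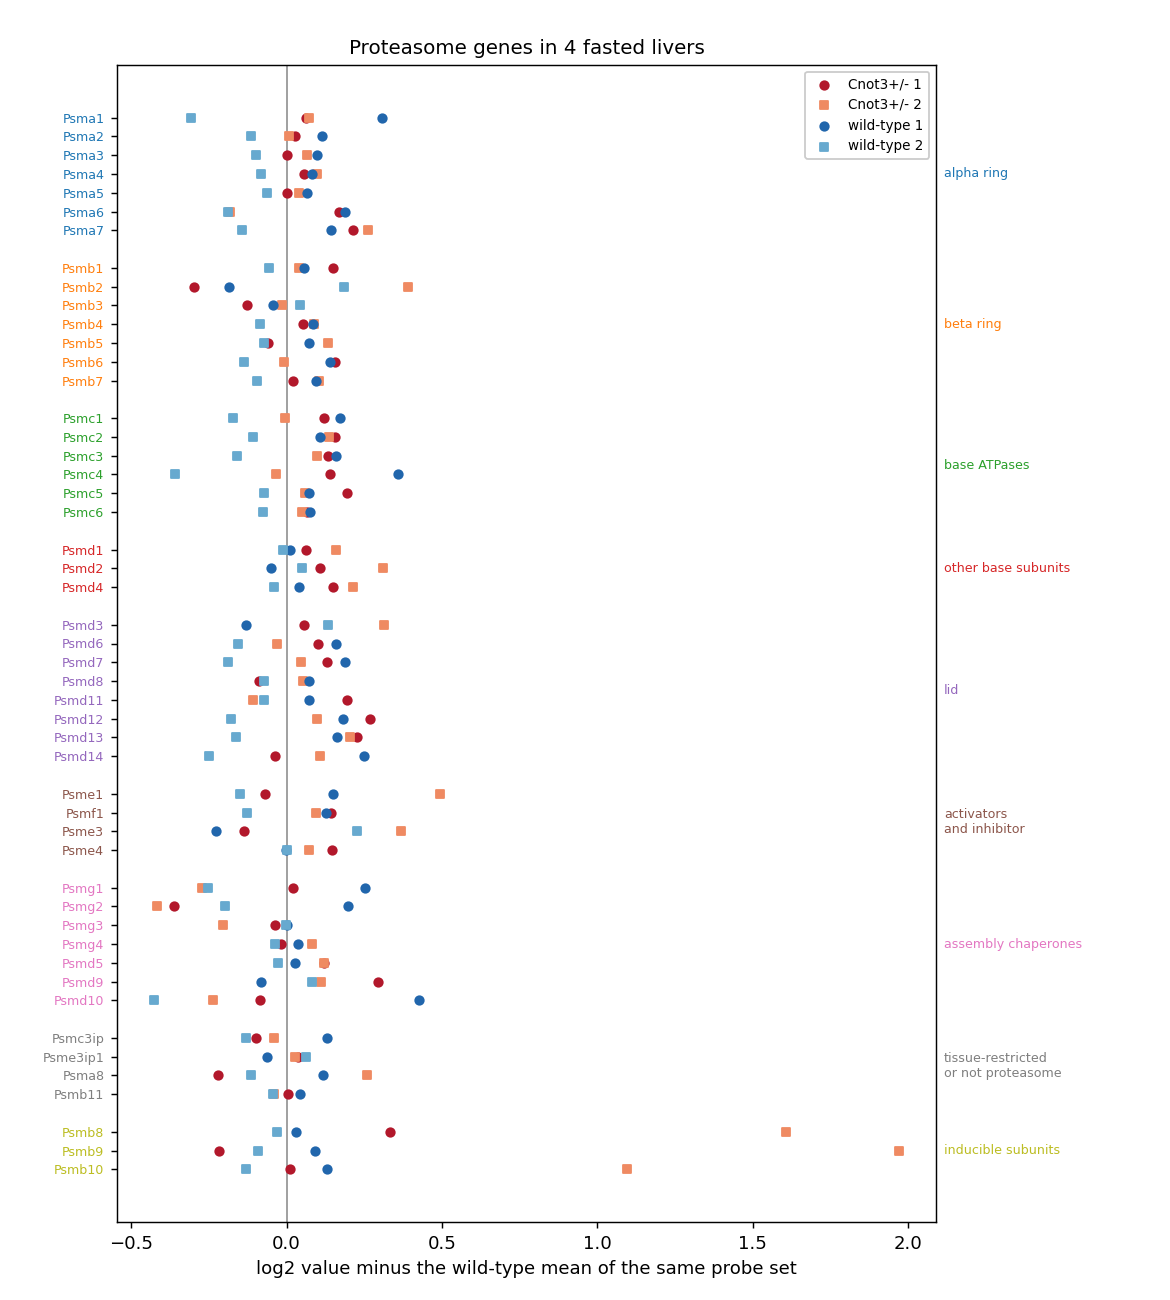
Log2 value of each gene on each array minus the wild-type mean of the same probe set, for the 46 proteasome genes and the 3 inducible subunits, grouped by role. Red and orange symbols are the Cnot3+/- arrays and dark and light blue symbols the wild-type arrays. In 38 of the 46 genes the dark blue circle (wild-type 1) lies right of the light blue square (wild-type 2), and the orange squares (Cnot3+/- 2) of the inducible subunits stand far to the right.

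Activators open the core without ubiquitin, and Psmf1 binds it as a regulator first described as an inhibitor. All 4 genes had a higher mean in the Cnot3+/- arrays, by 0.11 to 0.21. Psme1 encodes an activator subunit that interferon induces. It had 10.06 and 10.62 in the Cnot3+/- arrays, against 10.28 and 9.98 in the wild-type arrays (difference 0.21, SE 0.24, 95% interval -0.39 to 0.81). Cnot3+/- 2 was the highest of the 4 mice and Cnot3+/- 1 lay between the wild-type mice. The difference was -0.07 without Cnot3+/- 2 and 0.49 without Cnot3+/- 1. Its partner Psme2 shares a probe set with Psme2b and was not counted. That probe set had 9.84 and 10.17 in the Cnot3+/- arrays, against 10.05 and 9.46 in wild-type. Psme3, a nuclear activator, had 8.07 and 8.57 in the Cnot3+/- arrays, against 7.98 and 8.43 in wild-type (0.12, SE 0.25). On that probe set the second mouse of each genotype was the higher one. Another Psme3 probe set had 8.06 and 7.91 in the Cnot3+/- arrays, against 7.96 and 8.0 in wild-type, and differed by 0.0050. Psme4, a large activator known for its binding of histone substrates, had 9.79 and 9.72 in the Cnot3+/- arrays, against 9.64 and 9.64 in wild-type (0.11, SE 0.13). Its groups did not overlap, and its 3 probe sets past the filter differed by 0.11 to 0.12. Psmf1 had 8.33 and 8.28 against 8.31 and 8.06 in wild-type (0.12, SE 0.15), and its 4 probe sets ran from -0.10 to 0.19.

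Assembly chaperones were the role with a median below 0. Their median difference was -0.12, with 3 of 7 genes above 0 and 4 below, which turned to 0.12 without wild-type 1. Psmg2 encodes a chaperone that works as a pair with the Psmg1 protein in building the alpha ring. It had the largest difference in size of all 46 genes, with 8.0 and 7.94 in the Cnot3+/- arrays against 8.56 and 8.16 in the wild-type arrays. Its groups did not overlap, and the difference was -0.39 (SE 0.18, 95% interval -0.84 to 0.06, unadjusted p = 0.0778, limma adjusted p = 0.999). A second Psmg2 probe set had 7.17 and 7.16 in the Cnot3+/- arrays, against 7.73 and 7.32 in wild-type, a difference of -0.36. A dimmer one differed by 0.0035. Without wild-type 1 the difference on the probe set used was -0.19, and without wild-type 2 it was -0.59.

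Psmg1 had 9.02 and 8.73 in the Cnot3+/- arrays, against 9.26 and 8.75 in the wild-type arrays (difference -0.13, SE 0.22). Its groups overlapped. Psmg3 and Psmg4 encode the chaperone pair that acts next on the ring. Psmg3 had 8.12 and 7.95 in the Cnot3+/- arrays, against 8.15 and 8.15 in wild-type (-0.12, SE 0.14), and Psmg4 differed by 0.03 (SE 0.13). The chaperones of the base were Psmd5, Psmd9 and Psmd10. Psmd9 had 8.99 and 8.81 in the Cnot3+/- arrays, against 8.62 and 8.78 in wild-type (0.20, SE 0.15), and a second probe set differed by 0.30. Psmd5 had 8.78 and 8.77 against 8.68 and 8.63 in wild-type (0.12, SE 0.13). Both had separate groups. Psmd10, also known as gankyrin, had the widest gap between the wild-type mice of all 46 genes, at 7.46 and 6.61, with 6.95 and 6.80 in the Cnot3+/- arrays (-0.16, SE 0.30).

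The selection by name also took in genes that are no part of the constitutive liver proteasome. Psma8 is an alternative alpha subunit of testis and Psmb11 a catalytic subunit of thymus, and Psmc3ip takes part in meiotic recombination. Psmc3ip had 4.09 and 4.14 in the Cnot3+/- arrays against 4.31 and 4.05 in wild-type, and Psma8 had 4.20 and 4.67 against 4.53 and 4.30 in wild-type. Psmb11 had 4.22 and 4.18 in the Cnot3+/- arrays against 4.26 and 4.17 in wild-type. On their used probe sets these 3 had log2 values from 4.05 to 4.67, near the filter at 4.06, and differed by 0.02, -0.02 and -0.07. Psme3ip1, whose protein binds the Psme3 activator, had 7.98 and 7.97 in the Cnot3+/- arrays against 7.88 and 8.01 in wild-type (0.03, SE 0.13).

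The inducible subunits were set beside the constitutive ones they replace. Psmb8 takes the place of Psmb5, Psmb9 of Psmb6 and Psmb10 of Psmb7. Psmb8 had 8.24 and 9.52 in the Cnot3+/- arrays, against 7.94 and 7.88 in the wild-type arrays (difference 0.97, SE 0.42). Psmb9 had 6.60 and 8.79 in the Cnot3+/- arrays, against 6.91 and 6.72 in wild-type (0.88, SE 0.69). Psmb10 had 8.40 and 9.49 against 8.52 and 8.26 in wild-type (0.55, SE 0.37). Cnot3+/- 2 was the highest of the 4 mice for all 3, and none passed (adjusted p = 0.999 each). Without Cnot3+/- 2 the differences were 0.33 for Psmb8, -0.22 for Psmb9 and 0.01 for Psmb10. Relative to the wild-type mean, the 3 inducible genes averaged 0.04 in Cnot3+/- 1 and 1.56 in Cnot3+/- 2, and the 46 constitutive genes averaged 0.05 and 0.07.

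Macrophage and interferon genes shared with the inducible subunits a high average in Cnot3+/- 2, but not the order of the wild-type mice. The inducible subunits averaged 0.08 in wild-type 1 and -0.08 in wild-type 2, the reverse of the other 2 lists. All 10 macrophage markers were highest in Cnot3+/- 2, and they averaged -0.35 and 1.85 in the Cnot3+/- arrays, against -0.13 and 0.13 in wild-type, relative to the wild-type mean. The 16 interferon genes averaged 0.22 and 1.92 in the Cnot3+/- arrays, against -0.08 and 0.08 in wild-type. The 6 endothelial markers were lower in Cnot3+/- on average and stood at -0.93 and -0.12 there, against -0.07 and 0.07 in wild-type. Other marker lists were also higher in Cnot3+/- 2 than in Cnot3+/- 1. T and NK cell markers averaged -0.17 in Cnot3+/- 1 and 0.99 in Cnot3+/- 2, and neutrophil markers -0.05 and 0.52. Stellate cell markers averaged -0.29 and 0.35, and cholangiocyte markers 0.17 and 0.40. Hepatocyte markers averaged 0.14 and 0.05, the other way, with 5 of the 7 tested higher in Cnot3+/- 1. Their median gap between these arrays was only 0.04. Hnf4a (0.31) and Tat (0.30) had the widest gaps, and Alb and Ttr were higher in Cnot3+/- 2. The interferon gene of largest difference was Gbp6, a guanylate-binding protein gene, at 6.07 and 10.08 in the Cnot3+/- arrays against 5.59 and 5.76 in wild-type (2.39, SE 1.25). Usp18, which encodes a protease that removes ISG15, had 7.37 and 8.39 in the Cnot3+/- arrays against 5.59 and 5.85 in wild-type (2.16, SE 0.35). Neither had an adjusted p below 0.999. With Cnot3+/- 1 left out, Gbp6 differed by 4.40 and Usp18 by 2.67, values that rest on Cnot3+/- 2 alone. The part of these cells and signals in the values of the inducible subunits and of Psme1 was not tested. In whole liver, more cells of a type and more RNA per cell cannot be told apart.

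**Figure D4:**
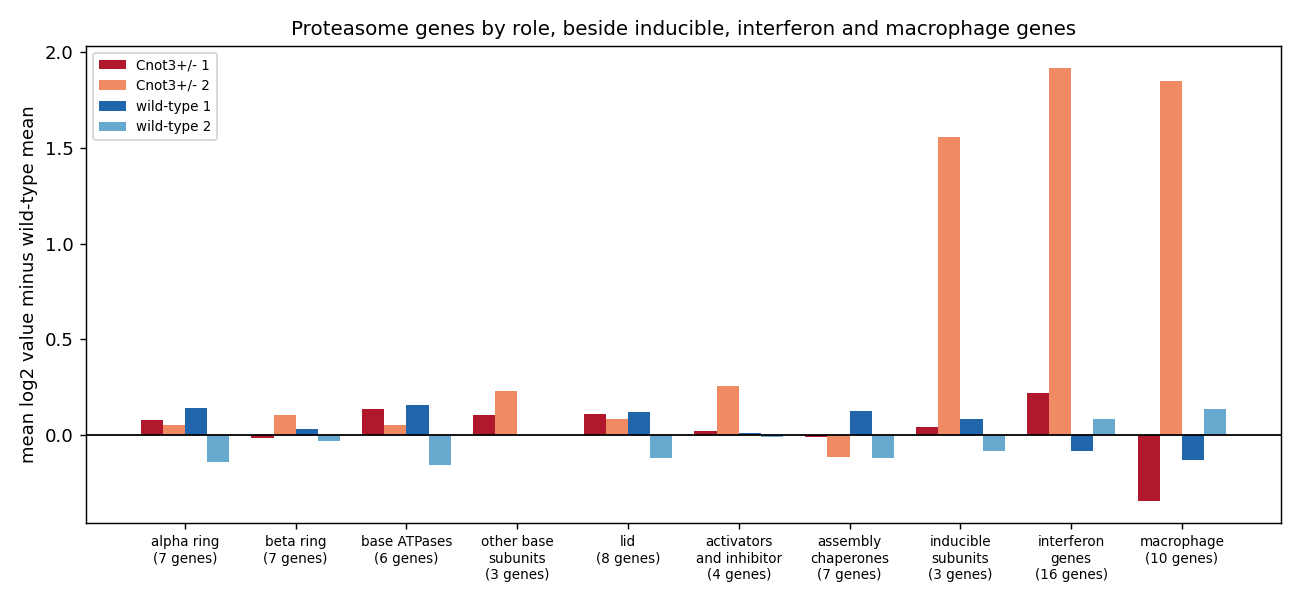
Mean log2 value minus the wild-type mean, for the proteasome genes by role and for the inducible subunits, interferon genes and macrophage markers (number of genes under each name). Bars are, from left to right in each group, Cnot3+/- 1, Cnot3+/- 2, wild-type 1 and wild-type 2. The constitutive roles stay between -0.16 and 0.26, while the inducible, interferon and macrophage genes stand at 1.56, 1.92 and 1.85 in Cnot3+/- 2.

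None of the tested genes that act around the proteasome was called, and some of them differed by more than any of the 46 genes. Nfe2l1 had 7.60 and 7.94 in the Cnot3+/- arrays, against 7.35 and 7.72 in the wild-type arrays (difference 0.24, SE 0.20). The second mouse of each genotype was the higher one. Most proteasome genes had the reverse order in wild-type, and a link between Nfe2l1 and their values was not tested. The stress regulator gene Nfe2l2 had 8.60 and 9.36 in the Cnot3+/- arrays, against 8.95 and 8.95 in wild-type (0.03, SE 0.27). The 8 transcriptional regulators tested were all above 0, with a median difference of 0.21. The largest differences among them were those of Stat3 and Maff, 2 genes named after their values were seen. Stat3, which encodes a factor activated by cytokines, had 9.71 and 9.68 in the Cnot3+/- arrays, against 8.88 and 9.29 in wild-type. Its groups did not overlap, and the difference was 0.61 (SE 0.18, 95% interval 0.15 to 1.07, unadjusted p = 0.0183, limma adjusted p = 0.999). Maff, which encodes a small Maf protein that pairs with the Nfe2l1 factor, had 5.66 and 5.77 in the Cnot3+/- arrays, against 5.37 and 5.46 in wild-type (0.30, SE 0.13), with no overlap. Among 10 partners of the proteasome 6 were above 0 and 4 below, with a median of 0.07. The largest differences were those of Ecpas, which encodes a proteasome adaptor, at 0.44 (SE 0.19), and of Zfand5, a proteasome-activating zinc finger gene, at 0.16 (SE 0.13). Zfand5 had 9.43 and 9.49 in the Cnot3+/- arrays against 9.23 and 9.37 in wild-type, and its difference turned to -0.04 with probe sets averaged. Ecpas had 8.13 and 8.39 in the Cnot3+/- arrays, against 7.64 and 8.01 in wild-type, with no overlap. Among 10 genes of ubiquitin handling and shuttling 9 were higher, with a median of 0.16. The autophagy receptor gene Sqstm1 differed by 0.45 (SE 0.25), at 11.33 and 11.92 in the Cnot3+/- arrays against 11.01 and 11.35 in wild-type. Vcp, the segregase that hands substrates to the proteasome, differed by 0.41 (SE 0.21), at 11.39 and 11.70 in the Cnot3+/- arrays against 10.93 and 11.35 in wild-type.

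Probe sets of the same gene did not always point the same way. Of the 21 genes with several probe sets past the filter, 11 had all of them in 1 direction and 10 did not. Those 10 were Psma6, Psmb1, Psmc4, Psmc6, Psmd6, Psmd7, Psmd11, Psmd13, Psmf1 and Psmg2. One probe set of the 80 had an unadjusted p under 0.05, a dim one of Psma1 with 5.11 and 4.82 in the Cnot3+/- arrays against 4.52 and 4.47 in wild-type (difference 0.47, adjusted p = 1). The brighter Psma1 probe set, used above, differed by 0.07. None of the 46 genes was tested through an _x_at or _s_at probe set.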

How the data were processed

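Liver RNA of 2 Cnot3+/- and 2 wild-type mice was hybridised to Affymetrix arrays, per the labels' protocols. The deposited table has a log2 value per probe set and array, obtained by RMA according to the submitters' processing notes. This method corrects background, normalizes arrays and summarises probes, and compresses differences of dim probe sets. No version or build is given in the sources used here. Gene symbols came from the platform annotation, and 34958 of 45101 probe sets had 1 symbol.

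The lowest 40% of probe sets by mean were left out. Each gene was tested through its brightest remaining probe set, with _x_at or _s_at kinds used only where it had no other. Genotypes were compared without covariates by the moderated, two-sided test of limma 3.58.1 (lmFit, eBayes) in R 4.3.3, and p was adjusted by Benjamini-Hochberg over all genes, with a threshold of 0.05. SE is the moderated standard error. In a simulation of this comparison on 13379 genes, 50 for each log2 change, the test found 0% of changes of 0.5, 10% of 1, 78% of 2 and 100% of 3, with 6 false calls. All simulated arrays of a gene had the same spread. In the data the Cnot3+/- arrays were further apart than the wild-type arrays (432 against 74 genes at least 2-fold apart), which was not simulated. Labels give both groups replicates 1 and 2 but call them biological replicates, so the numbers were not used as pairs. Members, lists and the naming rule were chosen with earlier results of these data known, and lists are described without a test. Values on every array are given for each role's 2 largest differences in either direction, for some fixed genes and for the 2 largest differences of the partner, ubiquitin and interferon lists. Stat3 and Maff fall outside this rule, and so do Psma1, Psmb2, Psmc4, Psmd1, Psmg1, Psmg3 and Alb. Alternatives were other filters, scalings, probe set choices and variance priors, the replicate block and leaving out each array.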

Additional observations from a re-analysis of the deposited data

How the results depend on the processing

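No proteasome gene was called under any of the alternatives run, including 3 arrays in place of 4. The 2 calls among all genes, none of them a proteasome gene, were lost per gene and per probe set with the replicate block (0 calls). With 1 array left out there were between 0 calls and 38 calls (without Cnot3+/- 1) per gene, and 0 per probe set. Same-numbered arrays deviated together only weakly (r = 0.16 across genes). No proteasome gene was called with or without the block, so these calls cannot show whether pairing matters. The median difference of the proteasome genes ran from -0.03 to 0.15 with 1 array left out, and from 0.03 to 0.07 under the other alternatives. By role, the median ran from -0.06 to 0.16 for the alpha ring, -0.03 to 0.15 for the beta ring, -0.03 to 0.24 for the ATPases, -0.06 to 0.23 for the lid, 0.04 to 0.23 for the activators and -0.21 to 0.12 for the chaperones. With 1 array left out, 30 of the 46 genes changed sign, 20 of them without wild-type 2. Differences of these genes ran as follows: Psma1 -0.24 to 0.38, Psma2 -0.097 to 0.13, Psma3 -0.064 to 0.13, Psma4 -0.0044 to 0.16, Psma5 -0.043 to 0.086, Psma6 -0.20 to 0.18, Psma8 -0.22 to 0.26, Psmb11 -0.063 to 0.026, Psmb2 -0.30 to 0.39, Psmb4 -0.016 to 0.16, Psmb5 -0.060 to 0.13, Psmb6 -0.065 to 0.21, Psmb7 -0.032 to 0.16, Psmc1 -0.11 to 0.23, Psmc3 -0.043 to 0.28, Psmc3ip -0.20 to 0.062, Psmc4 -0.31 to 0.41, Psmc6 -0.019 to 0.13, Psmd10 -0.59 to 0.26, Psmd11 -0.11 to 0.20, Psmd14 -0.21 to 0.28, Psmd6 -0.12 to 0.19, Psmd7 -0.100 to 0.28, Psmd8 -0.092 to 0.055, Psme1 -0.071 to 0.49, Psme3 -0.14 to 0.37, Psme3ip1 -0.029 to 0.095, Psmf1 -0.0073 to 0.25, Psmg1 -0.38 to 0.13, Psmg4 -0.017 to 0.083. Outside the proteasome genes the ranges were Psmb9 -0.22 to 1.97, Cnot3 -0.36 to 0.30, Nfe2l2 -0.35 to 0.41. Under other alternatives 8 proteasome genes changed sign, and the cause was not tested. After quantile normalization Psma2 differed by -0.011, Psmb11 by 0.0033, Psmd6 by -0.0019, Psme3ip1 by -0.0087, Psmg4 by -0.0077 and Nfe2l2 by -0.0087. With probe sets averaged, Psma6 differed by 0.061, Psmc6 by -0.14, Psmd6 by -0.0063, Psmd11 by -0.0099, Zfand5 by -0.045 and Cnot3 by 0.040. Psma6 was at 0.13 on its brightest probe set of any kind and at 0.0051 with arrays centred on their medians. The signal of Psma8, Psmb11 and Psmc3ip lies near the filter and limits what their differences show.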
